A study of Mus musculus with 2 samples.

Results

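The Mir23-Mir27-Mir24 clusters are a pair of paralogous groups of microRNA (miRNA) genes, 1 on mouse chromosome 13 (Mir23b, Mir27b and Mir24-1) and 1 on chromosome 8 (Mir23a, Mir27a and Mir24-2). Members were taken by Ensembl identifier, matched without its version to the GENCODE M21 annotation of the mm10 assembly. This gave 5 of the 1973 genes counted, namely Mir23b, Mir27b, Mir23a, Mir27a and Mir24-2. Mir24-1 is not among the genes counted.

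The RNA came from whole stomachs of B6NCrl mouse embryos, 14.5 days into development, with no treatment or genetic change named in the labels. The single group had 2 biological replicates, each labelled as a single stomach from 1 embryo and collected on its own day, so replicate and day cannot be told apart. The labels also give the sex as pooled male and female. Total RNA was sequenced as microRNA-seq, with a size range below 30 that the labels give without a unit.

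Each cluster is transcribed as 1 long primary RNA, from which Drosha cuts hairpins and Dicer then cuts mature miRNAs. A mature miRNA guides Argonaute proteins to messenger RNAs, mainly by pairing of its bases 2 to 8, the seed. The miRNAs of these clusters are known from endothelial cells, where miR-23 and miR-27 promote vessel growth, and miR-27 is known to restrain the formation of fat cells.

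The hairpins are shown to make visible how far the paralogues can be told apart by sequence. They are from RefSeq on GRCm38.p6, all on the plus strand, 5′ to 3′, and the capitals mark the longest run that a hairpin shares with its paralogue.
Mir23b: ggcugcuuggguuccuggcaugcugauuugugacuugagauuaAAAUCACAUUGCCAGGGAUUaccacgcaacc
Mir23a: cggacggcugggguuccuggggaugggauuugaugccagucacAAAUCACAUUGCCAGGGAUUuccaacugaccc
Mir27b: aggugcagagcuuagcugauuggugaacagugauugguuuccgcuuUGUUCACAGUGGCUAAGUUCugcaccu
Mir27a: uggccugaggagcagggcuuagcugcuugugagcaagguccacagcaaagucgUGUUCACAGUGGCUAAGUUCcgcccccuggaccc
Mir24-1: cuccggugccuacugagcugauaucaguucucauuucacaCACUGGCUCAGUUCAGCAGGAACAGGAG
Mir24-2: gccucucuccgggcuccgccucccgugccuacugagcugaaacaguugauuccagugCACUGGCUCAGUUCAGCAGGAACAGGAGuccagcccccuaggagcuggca

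The shared run was 20 nt for Mir23b and Mir23a and 20 nt for Mir27b and Mir27a, and it was 28 nt for Mir24-1 and Mir24-2. The mature sequences that carry the family seeds follow, with the seed in capitals. In miR-24-3p the whole mature sequence lies in both Mir24 hairpins.
miR-23a-3p: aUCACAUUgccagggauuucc
miR-27b-3p: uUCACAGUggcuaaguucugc
miR-27a-3p: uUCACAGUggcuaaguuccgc
miR-24-3p: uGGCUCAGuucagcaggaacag
miR-24-1-5p: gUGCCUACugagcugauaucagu
miR-24-2-5p: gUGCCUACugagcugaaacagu

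Positions are counted from 1 at the 5′ end of the mature sequence named first. Over 21 bases, miR-23a-3p and the matching stretch of the Mir23b hairpin differed at 1 position, U19A. Over 21 bases, miR-27a-3p and miR-27b-3p also differed at 1 position, C19U. Within the seed, miR-23a-3p and miR-27a-3p differed at 1 position, U7G, so these neighbours in 1 transcript carry unlike seeds.

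Among the 1005 RefSeq hairpins of the table used, the first 18 bases of miR-23a-3p were found in 2 hairpins and the first 19 in Mir23a alone. The same lengths held for miR-27a-3p, with Mir27a and Mir27b. For miR-24-2-5p the first 17 bases sufficed. For miR-24-3p, every stretch searched, from the first 12 bases to the whole 22, lay in 2 or more hairpins.

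**Figure D1:**
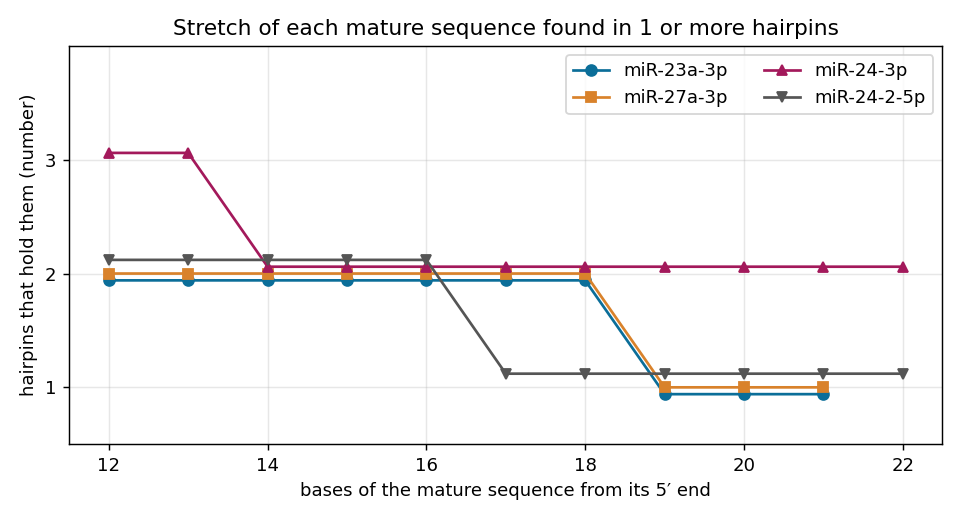
Number of RefSeq hairpins (vertical axis) that hold the first bases of a mature sequence, against the number of bases taken from its 5′ end (horizontal axis, nt), for 4 mature sequences, with lines shifted slightly so that they do not hide each other. The lines of miR-23a-3p and miR-27a-3p reach 1 hairpin at 19 bases, that of miR-24-2-5p at 17, and that of miR-24-3p stays at 2 hairpins from 14 bases to its full 22.

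By seed, the RefSeq table holds UCACAGU in miR-27a-3p and miR-27b-3p and in no further mature entry at bases 2 to 8. The same letters are found 1 base off in miR-128-3p, whose genes Mir128-1 and Mir128-2 had 107 ± 19.7 and 24.4 ± 6.27 CPM (counts per 1000000 gene counts, SD, n = 2). The seed GGCUCAG of miR-24-3p also occurs in mature sequences of Mir5124b, Mir6369, Mir6410 and Mir6413, which were at 0 counts in both libraries. The seed UCACAUU of miR-23a-3p occurs at bases 2 to 8 of no other entry, but the RefSeq table used holds no 3p entry for Mir23b. The Mir23b hairpin holds the same letters in its shared run.

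On mm10, Mir23b (ENSMUSG00000065599.1) lies at chr13:63300484-63300557, Mir27b (ENSMUSG00000065475.1) at chr13:63300712-63300784 and Mir24-1 at chr13:63301208-63301275. All of them lie on the plus strand inside 2010111I01Rik, a protein-coding gene of the same strand, also named Aopep, an aminopeptidase. Mir23b overlaps none of its annotated exons, while Mir27b and Mir24-1 lie wholly within an exon of at least 1 of its annotated transcripts. The cluster also lies in introns of Fancc, a gene of the Fanconi anaemia DNA repair pathway, on the opposite strand.

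Mir23a (ENSMUSG00000065611.1) lies at chr8:84208518-84208592, Mir27a (ENSMUSG00000065444.1) at chr8:84208672-84208758 and Mir24-2 (ENSMUSG00000065541.1) at chr8:84208815-84208921, all on the plus strand. Mir23a and Mir27a overlap no other annotated gene. Mir24-2 shares its last 2 nt with the non-coding gene Gm26532 and overlaps Mir3074-2, an uncounted gene, on the opposite strand. The chromosome 8 cluster spans 404 nt and the chromosome 13 cluster 792 nt.

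**Figure D2:**
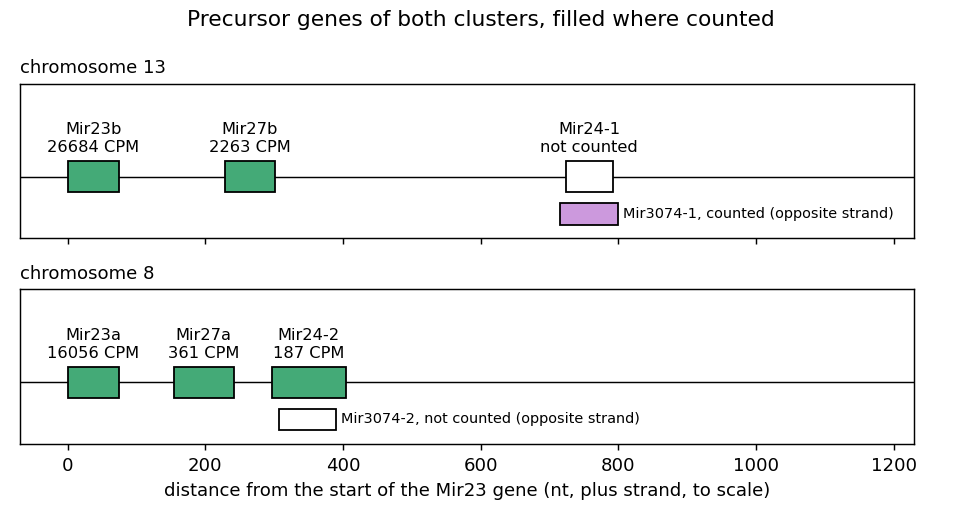
Map to scale of the precursor genes of both clusters, with distance in nt from the start of the Mir23 gene on the horizontal axis and mean CPM (n = 2) above each counted gene. Filled boxes are counted genes and open boxes are not. The gap after Mir27b is 423 nt and the gap after Mir27a is 56 nt, and Mir24-1, which is not counted, lies opposite the counted gene Mir3074-1.

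The depth was 5004548 gene counts in replicate 1 and 4679914 in replicate 2. Reads that map to several places, 2437052 in replicate 1 and 2263676 in replicate 2, belong to no gene. A read of the whole miR-24-3p matches both Mir24 loci, and the tables do not say how many such reads there were. In the bulk tissue, fewer cells of a type and less RNA per cell cannot be told apart. Of the marker miRNAs, smooth muscle (Mir143, Mir145a) summed to 164146 CPM in the first replicate and 146512 CPM in the second, and epithelium (5 genes of the Mir200 family) to 41439 and 41482 CPM. The endothelial marker Mir126a had 21613 and 19164 CPM. Striated muscle (4 genes) summed to 111 and 96.2 CPM, of which Mir208b held 95.1 and 86.3 CPM. Mir133a-1 had 0 counts in both libraries. Marker counts also leave out reads placed at several loci, so a count of 0 need not mean absence. Mir375 of gastric and endocrine epithelium had 5552 and 4678 CPM, Mir205 of squamous epithelium 9299.5 and 10237 CPM, and the liver miRNA Mir122 56.7 and 65.8 CPM. The erythroid genes Mir451a, Mir144 and Mir486 summed to 151 and 218 CPM. The part of any cell type in the levels below was not tested.

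Together the 5 members held 45552 ± 3229 CPM (SD, n = 2), or 4.56% of all gene counts. Replicate 1 had 43268 CPM for their sum and replicate 2 had 47835 CPM. The Mir23 genes made up most of this sum, the Mir27 genes little and Mir24-2 least. Each of the 5 had 10 or more counts in both libraries, the minimum for a gene to be called detected, which 361 genes reached.

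Mir23b was the most abundant member, with 122321 counts (95% exact Poisson interval 121636 to 123009) in replicate 1 and 135373 (134652 to 136097) in replicate 2. These intervals, and all others given here, cover the counting error of reads only, and the reads carry no molecular identifiers. Mir23b stood at 24442 CPM in replicate 1 and 28926 CPM in replicate 2, and was eighth of the 361 detected genes by mean CPM. It was the member that was higher in replicate 2 by the widest margin.

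Mir23a, its paralogue, had 79093 counts in replicate 1 and 76319 in replicate 2. The corresponding levels of 15804 and 16308 CPM placed it at rank 16 by mean CPM. The libraries were close to each other for this gene.

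Mir27b, the second gene of the chromosome 13 cluster, had 12130 counts in replicate 1 and 9837 in replicate 2, or 2424 and 2102 CPM. Mir27a, its counterpart on chromosome 8, had 2011 counts in replicate 1 and 1500 in replicate 2, or 402 and 321 CPM. By mean CPM they were at ranks 70 and 146, and both were higher in replicate 1.

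Mir24-2 had 983 counts (922 to 1047) in replicate 1 and 835 (779 to 894) in replicate 2. The levels were 196 and 178 CPM, rank 165. These counts leave out every read placed at several loci, so they are not the amount of miR-24-3p.

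**Figure D3:**
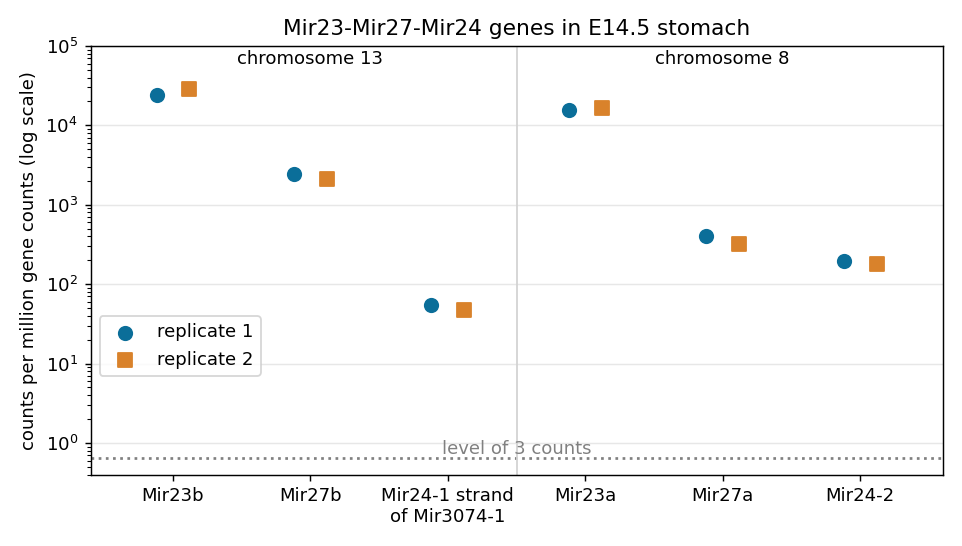
Level of each member in each library, as CPM on a log axis, with circles for replicate 1 and squares for replicate 2. The dotted line is the level of 3 counts, 0.641 CPM in the shallower library. The Mir23 genes lie between 15804 and 28926 CPM, the Mir27 genes lie between 321 and 2424 CPM, and the reads on the strand of Mir24-1 are lowest, at 54.4 and 47.0 CPM.

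To compare genes with each other, CPM were divided by the annotated gene length and are given per 100 nt. On this scale Mir23b had 33029.7 in replicate 1 and 39089.7 in replicate 2, and Mir23a had 21072 and 21744. Mir27b had 3320 and 2879 CPM per 100 nt, Mir27a 462 and 368, and Mir24-2 184 and 167. The order was the same in both libraries, and no member's range over the libraries overlapped that of the next. A mature miRNA is of nearly the same length whatever its hairpin, so the count ratio is given beside each length-scaled ratio.

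Between the paralogues, the chromosome 13 gene was the higher one in both families, by reads that were placed at 1 locus. Mir23b exceeded Mir23a 1.57-fold per 100 nt in replicate 1 and 1.80-fold in replicate 2, a log2 ratio of 0.75 ± 0.14 (SD, n = 2). The ratio of counts was 1.55 and 1.77. Of the counts of the Mir23 genes, Mir23b held 60.7% (95% Clopper-Pearson interval 60.5 to 60.9) in replicate 1 and 63.9% (63.7 to 64.2) in replicate 2. The shares differed between the libraries by more than counting error, and both lay above an equal split.

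The gap was wider in the Mir27 family. Mir27b exceeded Mir27a 7.19-fold per 100 nt in replicate 1 and 7.82-fold in replicate 2, a log2 ratio of 2.91 ± 0.09 (SD, n = 2), with count ratios of 6.03 and 6.56. Mir27b held 85.8% (85.2 to 86.4) of the counts of the Mir27 genes in replicate 1 and 86.8% (86.1 to 87.4) in replicate 2. These intervals overlap. With 2 libraries in 1 group no test on the ratios was made.

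Both counted genes of the chromosome 13 cluster, summed and set over Mir23a and Mir27a of the chromosome 8 cluster, gave a count ratio of 1.66 in replicate 1 and 1.87 in replicate 2. The log2 ratio was 0.81 ± 0.12 (SD, n = 2). The Mir23 genes supply most counts of both sums, so the value is close to that of Mir23b over Mir23a.

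Within each cluster the Mir23 gene had the highest level per 100 nt. Mir23b exceeded Mir27b 9.95-fold per 100 nt in replicate 1 and 13.6-fold in replicate 2, a log2 ratio of 3.54 ± 0.32 (SD, n = 2), with count ratios of 10.1 and 13.8. Mir23a exceeded Mir27a 45.6-fold in replicate 1 and 59.0-fold in replicate 2, a log2 ratio of 5.70 ± 0.26, with count ratios of 39.3 and 50.9. Mir23a exceeded Mir24-2 115-fold in replicate 1 and 130-fold in replicate 2, a log2 ratio of 6.93 ± 0.13, with count ratios of 80.5 and 91.4. Mir27a exceeded Mir24-2 2.52-fold in replicate 1 and 2.21-fold in replicate 2, a log2 ratio of 1.24 ± 0.13, with count ratios of 2.05 and 1.80. The ratio of Mir27a to Mir24-2 was smaller than that of Mir27b to Mir27a. Unlike sequences can be captured unequally when a library is made, and the SD does not cover an error that both libraries share. The Mir24-2 counts also leave out every read placed at several loci, so the ratios over Mir24-2 do not compare whole amounts of mature miRNA.

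All counted miRNA genes were then placed in groups of the same strand with less than 10 kb between neighbours, and the highest level per 100 nt was divided by the lowest among the detected genes of a group. Of 41 groups with 2 or more detected genes, the chromosome 8 cluster had the eighth largest span, 122-fold, and the chromosome 13 cluster was at rank 22, with 11.6-fold. The log2 spans were 6.93 and 3.54, and that of the median group was 3.71. Among the 5 groups with 3 detected genes, the chromosome 8 cluster had the largest span, against a median log2 span of 4.28, and among the 28 groups with 2 detected genes the chromosome 13 cluster was at rank 13, against 2.97. Groups differ in size and in how many genes share sequence, so the ranks are a description. The chromosome 13 span holds no Mir24 gene, since Mir24-1 is not counted, so the spans of the clusters are not like for like. Set over the reads on the strand of Mir24-1, Mir23b had 450 times the counts in replicate 1 and 615 times in replicate 2. Reads placed at both Mir24 loci are left out there too. The ranks are of length-scaled spans, and no ranking by counts was made. By counts, Mir23a over Mir24-2 was 80.5 in replicate 1 and 91.4 in replicate 2. Another group with 3 detected genes had a wider span by counts in replicate 1 and a narrower one in replicate 2. With groups of less than 50 kb between neighbours the chromosome 8 cluster was at rank 2 of the 6 groups with 3 detected genes.

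**Figure D4:**
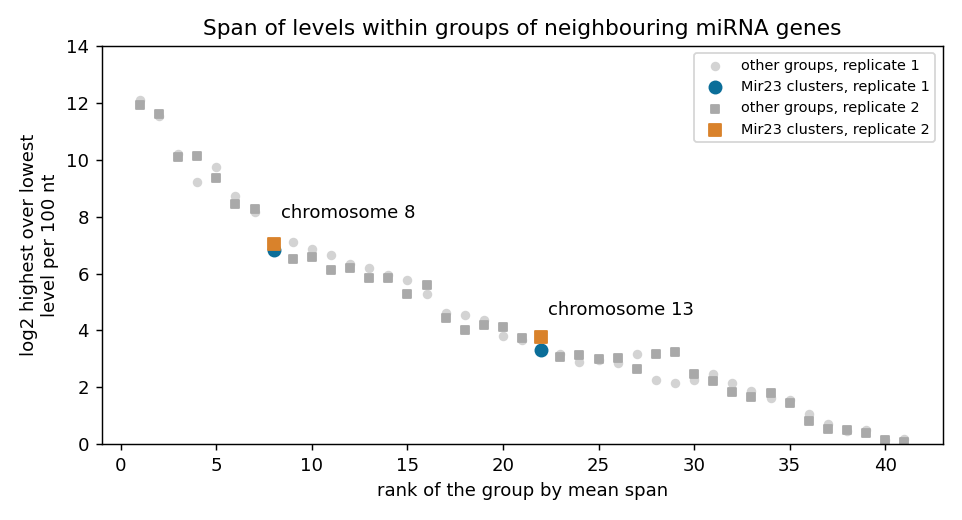
Log2 of the highest over the lowest level per 100 nt among detected genes of each group of neighbouring miRNA genes (vertical axis), with groups ordered by mean span (horizontal axis, rank), circles for replicate 1 and squares for replicate 2. The chromosome 8 cluster is eighth of 41 groups, at a mean of 6.93, and the chromosome 13 cluster is at rank 22, at 3.54. Only the chromosome 8 span includes a Mir24 gene.

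The libraries were compared with each other to see which members varied. Log2 ratios are replicate 1 over replicate 2. Mir27a had a ratio of 0.33 (95% exact conditional binomial interval 0.23 to 0.42), Mir27b of 0.21 (0.17 to 0.24) and Mir24-2 of 0.14 (0.004 to 0.27). Mir23b had a ratio of -0.24 (-0.25 to -0.23). Mir23a had a ratio of -0.05 (-0.06 to -0.03), which was 0.01 with edgeR's TMM factors and 0.04 with DESeq2's size factors and so has no settled direction. The other 4 members kept their sign under these scalings.

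None of the 5 members reached an absolute log2 ratio of 1, which 4 of the 361 detected genes did (1.11%). These 4, named after their values were seen, were Mir802, Gm26117, Mir6240 and Mir450-2, all higher in replicate 1 and below 100 CPM. In the set of 196 genes with at least 100 CPM the ratio had an SD of 0.20, and 0 of them reached 1 (0%). A ratio at least as large as that of Mir27a, in either direction, was found for 24 of these 196 genes. For Mir23b the number was 40, for Mir27b 52, for Mir24-2 78 and for Mir23a 156. The members' median ratio was 0.14 and that of all detected genes -0.04. The intervals measure these libraries and not a condition, and over the detected genes the difference between libraries exceeded sampling noise (chi-square of 75.8 per degree of freedom).

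**Figure D5:**
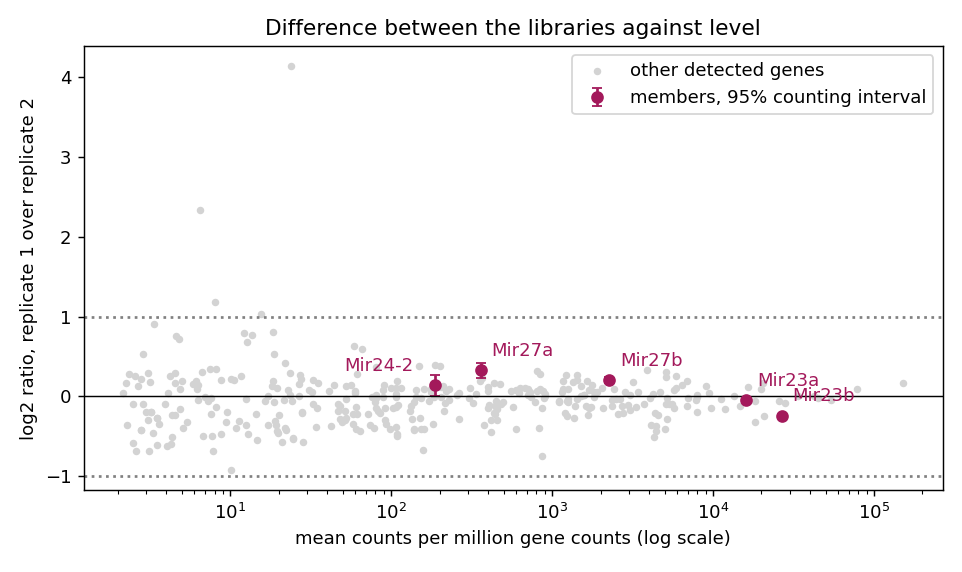
Log2 ratio of replicate 1 over replicate 2 (vertical axis) against mean CPM on a log axis for the 361 detected genes, with members in colour and bars for their 95% counting intervals. Dotted lines mark an absolute log2 ratio of 1. Mir27a, Mir27b and Mir24-2 lie above 0 and Mir23b below it, all well inside the dotted lines.

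Relative to the Mir27 gene of its own cluster, each Mir23 gene was lower in replicate 1, under any scaling, since a ratio within a library does not depend on it. Mir23b held 91.0% (90.8 to 91.1) of the joint counts of Mir23b and Mir27b in replicate 1 and 93.2% (93.1 to 93.4) in replicate 2. Mir23a held 97.5% (97.4 to 97.6) of the joint counts of Mir23a and Mir27a in replicate 1 and 98.1% (98.0 to 98.2) in replicate 2. In both pairs the share of the Mir23 gene was lower in replicate 1 by more than counting error. The span of the chromosome 13 cluster differed between the libraries by 0.45 on the log2 scale, rank 9 of the 41 groups, against a median of 0.21. That of the chromosome 8 cluster differed by 0.18, rank 23.

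The separate strand columns showed reads from the locus of Mir24-1. Mir3074-1, at chr13:63301199-63301283 on the minus strand, overlaps all 68 nt of Mir24-1, and a read from either strand enters its count. On the strand of Mir3074-1 itself there were 263 counts in replicate 1 and 318 in replicate 2. The opposite strand, that of Mir24-1, held 272 counts (240 to 307) in replicate 1 and 220 (191 to 252) in replicate 2, or 54.4 and 47.0 CPM. A count of 0 allows up to 3 counts, or 0.599 CPM in replicate 1 and 0.641 CPM in replicate 2.

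Mir24-2 had 3.61 times the counts of the Mir24-1 strand in replicate 1 and 3.80 times in replicate 2, on its own strand and without length scaling. In the Mir23 and Mir27 families the chromosome 13 gene was the higher one, and here the chromosome 8 gene was. The Mir24 counts hold no read placed at both loci, so this comparison is of reads that could be placed at 1 locus. For the 5 members, the opposite strand held at most 1 count in either library. This is usual here, since 323 of the 361 detected genes had 0 opposite-strand counts in both libraries. In 12 of the 361 the opposite strand held 10% or more of the counts in both libraries. Mir3074-1 is among them, with 50.8% in replicate 1 and 40.9% in replicate 2.

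Of the counted genes with mature entries in RefSeq, 85 had a mature sequence that occurs whole in another hairpin, Mir24-2 among them. Of these, 46 were detected (54.1%), with a median of 55.1 CPM over the detected ones. Of 831 genes with no such sequence, 279 were detected (33.6%), with a median of 178 CPM over the detected ones. Neither Mir23 nor Mir27 genes belong to the first set. Mir24-2, at a mean of 187 CPM, was the lowest member but lay above both medians. Whether sharing bears on its count was not tested.

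A list of 13 miRNAs known from endothelial cells or vessel growth, of which 12 were counted and all 12 detected, was set beside the members. Per 100 nt, 1 of the 12 stood above Mir23b, 3 above Mir23a and 6 above Mir27b. By mean CPM the order differed. Mir130a (25832 CPM) lay below Mir23b (26684 CPM), and Mir92-1 (2359 CPM) lay above Mir27b (2263 CPM). Mir130a, known for promoting vessel growth, had 25377 CPM in replicate 1 and 26286 CPM in replicate 2. Mir126a, the main endothelial miRNA, lies within Egfl7, a gene of a vascular protein. Its log2 ratio between the libraries was 0.17, the sign of the Mir27 genes and Mir24-2 and opposite to that of Mir23b. Mir17, of the Mir17hg transcript, had 19135 and 22626 CPM and a log2 ratio of -0.24, equal to that of Mir23b at this rounding. Mir221 and Mir222, which act on Kit, had 215 ± 9.18 and 131 ± 11.6 CPM. Of the 12 genes, 3 had a log2 ratio above 0, and their median was -0.07, beside 155 of all 361 detected genes and a median of -0.04. None of the 12 reached an absolute log2 ratio of 1.

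The genes closest to each member in mean log2 CPM over the 2 libraries were also listed. Mir130a lay nearest to Mir23b, 0.04 apart, and Mir322 to Mir23a, 0.05 apart. Mir361 lay nearest to Mir27b, 0.06 apart, and Mir3071 to Mir27a, 0.02 apart. Mir496a lay nearest to Mir24-2, 0.01 apart. Likeness of level over 2 libraries is no likeness of pattern.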

How the data were processed

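The deposited unit is counts, whole numbers per gene and library. The authors made them from an alignment to mm10 with GENCODE M4, per the accompanying file text. Which aligner and counter they ran is not given in the sources used here. From the values, the 2nd and 3rd count columns separate the strands and add up to the 1st, which was used. Lines that name no gene were left out of the totals. They held unmapped reads (12.5% of all reads in replicate 1, 13.5% in replicate 2), reads at several places (27.8%, 27.4%) and reads outside genes (2.50%, 2.32%).

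Symbols came from GENCODE M21, for 1894 of 1973 genes. Listed names missing there were looked up among RefSeq synonyms (Mir18a as Mir18, Mir92a-1 as Mir92-1, Mir486a as Mir486). Sequences came from RefSeq (GRCm38.p6). A genome sequence was not used here. Levels are CPM, over 5004548 and 4679914 gene counts. A gene with 10 or more counts in both libraries was called detected. With 1 group, a quasi-likelihood test has no contrast, so ratios carry exact conditional binomial or Clopper-Pearson 95% intervals and no p-value, and a gene was called past an absolute log2 ratio of 1. TMM factors came from edgeR 4.0.16 and size factors from DESeq2 1.42.0, for alternatives. The rest used Python 3.11.15 and scipy 1.17.1.

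The genes named are the members, Mir24-1 and genes that overlap it, the gene nearest in level to each, the listed vascular miRNAs and cell type markers, and those that share a seed. Members, lists and rules were chosen with earlier results of these data known.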

Additional observations from a re-analysis of the deposited data

Results flagged for a closer look

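Counts on the strand of Mir24-1 within the gene Mir3074-1, 272 in replicate 1 and 220 in replicate 2, are a signal in a strand column outside the main measurement. Both lie above the 3 counts that a count of 0 allows.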

How the results depend on the processing

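The libraries hold 1 group of 2 samples, so spreads rest on 2 values and no test of a condition exists. No paired analysis was possible because there is 1 group. With all reads as the denominator, the members summed to 25930 CPM in place of 45552. Without length scaling the log2 ratio was 2.65 for Mir27b over Mir27a and 6.42 for Mir23a over Mir24-2, a change that follows from the gene lengths alone. With 1 or more counts in both libraries, 102 of 605 genes had an absolute log2 ratio of 1 or more between the libraries (16.9%), and with no filter and a pseudocount of 0.5, 187 of 722 (25.9%), against 4 of 361. These filters add genes of few counts. No member passed under any of these settings. TMM factors, size factors, own-strand counts, and for the cluster ratio the counts of Mir24-2 and of the Mir24-1 strand, moved the members' sum and the ratios between members by less than their SD. Leaving out 1 library gave sums of 43268 to 47835 CPM, and log2 ratios of 0.65 to 0.85 for Mir23b over Mir23a, 2.85 to 2.97 for Mir27b over Mir27a, 3.31 to 3.76 for Mir23b over Mir27b, 5.51 to 5.88 for Mir23a over Mir27a, 6.84 to 7.03 for Mir23a over Mir24-2 and 0.73 to 0.90 for the chromosome 13 over the chromosome 8 cluster. With groups of less than 50 kb between neighbours and with 100 or more counts the spans of both clusters were the same, but their ranks moved. At 50 kb the chromosome 8 cluster was at rank 10 and the chromosome 13 cluster at rank 24 of 47 groups, and with 100 or more counts they were at rank 7 and rank 18 of 38 groups, where the median log2 span was 3.05, below that of the chromosome 13 cluster.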
